A study of Homo sapiens with 6 samples.

Results

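The genes described here are 43 interferon-stimulated genes, a list drawn up by name, and their RNA was measured in 786-O cells, a human line established from clear cell renal carcinoma and labelled wild type. Members were the rows of the deposited count table whose gene symbol equals a name on the list. All 43 had a row among 25987 genes with a symbol, and 37 passed the filter on low counts, among 12944 genes tested. The comparison was between 2 groups of 3 cultures. The copper group had been kept in medium whose serum was loaded with copper sulfate, with label doses of 30, 31 and 32 uM for replicates 1, 2 and 3 and 30 uM in the text on the series. The control group received serum handled in the same way without copper, and both groups were grown in DMEM/F12 with serum. All cultures are of 1 cell line, and the labels do not say whether the cultures of a group were adapted to copper separately, so the p-values measure the spread between these cultures only.

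Interferons are secreted proteins that bind receptors at the cell surface and activate the kinases JAK1 and TYK2. These phosphorylate STAT proteins, among them STAT2, which acts with IRF9 in the factor ISGF3. ISGF3 binds the interferon-stimulated response element in promoters and switches on a broad set of antiviral genes, many of which keep a low level of expression without added interferon. The members include sensors of viral RNA, enzymes and binding proteins that block viral replication, and the factors that amplify the signal itself.

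No interferon-stimulated gene passed the test for a difference between copper and control. Of the 37 tested members, 0 were called at an adjusted p under 0.05 by edgeR's quasi-likelihood test, and 0% of all 12944 tested genes were called. The values leaned towards higher levels in copper, with 32 of 37 members above 0 on the log2 scale and a median log2 fold change of 0.21. Among all tested genes 51.4% lay above 0, and the median was 0.0052. The lean was smaller once each library's trend in transcript length was removed, at a median of 0.12 with 32 of 37 above 0. It was likewise smaller with both libraries of replicate 3 left out, at 0.12 with 28 of 38 above 0. In those libraries of replicates 1 and 2 alone, 1 member, TRIM22, was called higher in copper (adjusted p 0.0055), with 0.856% of all genes. With the replicate number as a block, the same libraries gave 3 called members, TRIM22, IFI44 and IFIH1, with 7.03% of all genes.

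Libraries held between 16301772 and 25079913 counts. Replicate 3 stood apart in both groups, at 35.7 for copper and 13.6 for control on the first principal component of log2 CPM (64.6% of the variance), against -14.6 to -9.92 for the other 4 libraries. Of 10 renal markers 9 were tested. VIM, a mesenchymal gene that renal carcinoma cells also express, was the most abundant. The other 9 summed to 1008 to 1203 CPM in copper and 934 to 1368 CPM in control. Among these KRT19 had 36.2 ± 1.29 CPM in copper and 19.6 ± 3.12 CPM in control (SD), without overlap. Its log2 fold change was 0.88, with an edgeR adjusted p of 0.241 unblocked and 0.0464 blocked. No other renal marker was called in either fit, and of the 9 tested 3 lay above 0 and 6 below. The marker that did not pass the filter was CA9, with 0 to 0.12 CPM in copper and 0 to 0.10 CPM in control. The 9 leukocyte markers summed to 0.79 to 1.35 CPM in copper and 0.60 to 1.05 CPM in control, and none passed the filter. The 6 endothelial and stromal markers summed to 6.64 to 10.2 CPM in copper and 7.65 to 10.1 CPM in control, and 2 passed the filter. LUM had 3.47 ± 1.31 CPM in copper and 2.40 ± 0.81 CPM in control (SD), a log2 fold change of 0.51. PDGFRB had 4.37 ± 0.84 and 5.90 ± 0.78 CPM, a log2 fold change of -0.42. Both had overlap, and neither was called in either fit. In bulk RNA, fewer cells making a transcript and less of it per cell cannot be told apart.

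Promoters of the members were searched for the core letters of the element that ISGF3 binds. This core, GAAA followed by any 2 bases and GAAA again, was looked for on both strands from 250 bases before to 50 bases after the RefSeq start (GRCh38.p14), and 34 members had an entry. The other members were IFIT2, OAS2, OASL, MX2, IFITM2, USP18, DHX58, IRF7 and TRIM22. The core lay in 23 of 34 member promoters (67.6%) and in 996 of 27305 promoters of all genes (3.65%). The palindromic core TTCNNNGAA, an element bound by STAT proteins, lay in 10 of 34 member promoters (29.4%) and in 7.88% of all promoters, and 6 members held both. A match is a string of letters, and binding was not measured here. The stretches below are shown for members whose values are described next, 5′ to 3′ on the strand of the gene, with 1 core in capitals. All end before the start of transcription. IFIT3, ISG15, IFI6, BST2 and IFIH1 each held at least 2 cores, and IFI44 held 1.
IFIT3: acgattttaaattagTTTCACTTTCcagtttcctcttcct
ISG15: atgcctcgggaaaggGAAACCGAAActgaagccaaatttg
IFI44: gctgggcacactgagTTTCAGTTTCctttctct
IFI6: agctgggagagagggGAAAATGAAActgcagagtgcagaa
BST2: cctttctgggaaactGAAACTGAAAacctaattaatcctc
IFIH1: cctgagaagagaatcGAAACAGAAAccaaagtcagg
These lie at chr10:89327860-89327899 on the plus strand for IFIT3, chr1:1013375-1013414 (plus) for ISG15 and chr1:78649756-78649788 (plus) for IFI44. The stretch of IFI6 lies at chr1:27672283-27672322 (minus), that of BST2 at chr19:17405730-17405769 (minus) and that of IFIH1 at chr2:162318685-162318720 (minus). The first base of the core lies 122 bases before the start in IFIT3, 107 in ISG15, 18 in IFI44, 115 in IFI6, 124 in BST2 and 21 in IFIH1. IFI44 and IFIH1 thus carry a core close to the start, while those shown for the other 4 lie farther upstream.

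Levels per transcript length spanned more than 4 orders of magnitude. Divided by the length of exon sequence in GENCODE 29, control cultures held 377 ± 12.7 CPM per kilobase of BST2 (SD, n = 3), 141 ± 7.20 of LGALS3BP and 65.8 ± 1.04 of IFITM3. STAT2 followed at 23.9 ± 2.84 and IFITM2 at 18.7 ± 1.53 CPM per kilobase. At the other end CMPK2 had 0.013 ± 0.013 and OAS2 0.025 ± 0.0060 CPM per kilobase. The same genes led in copper, where LGALS3BP had 148 ± 31.3 and IFITM3 76.2 ± 22.6 CPM per kilobase after BST2 with a mean of 444. BST2, also called tetherin, holds budding virus at the membrane, and LGALS3BP is a secreted glycoprotein that binds galectins.

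**Figure D1:**
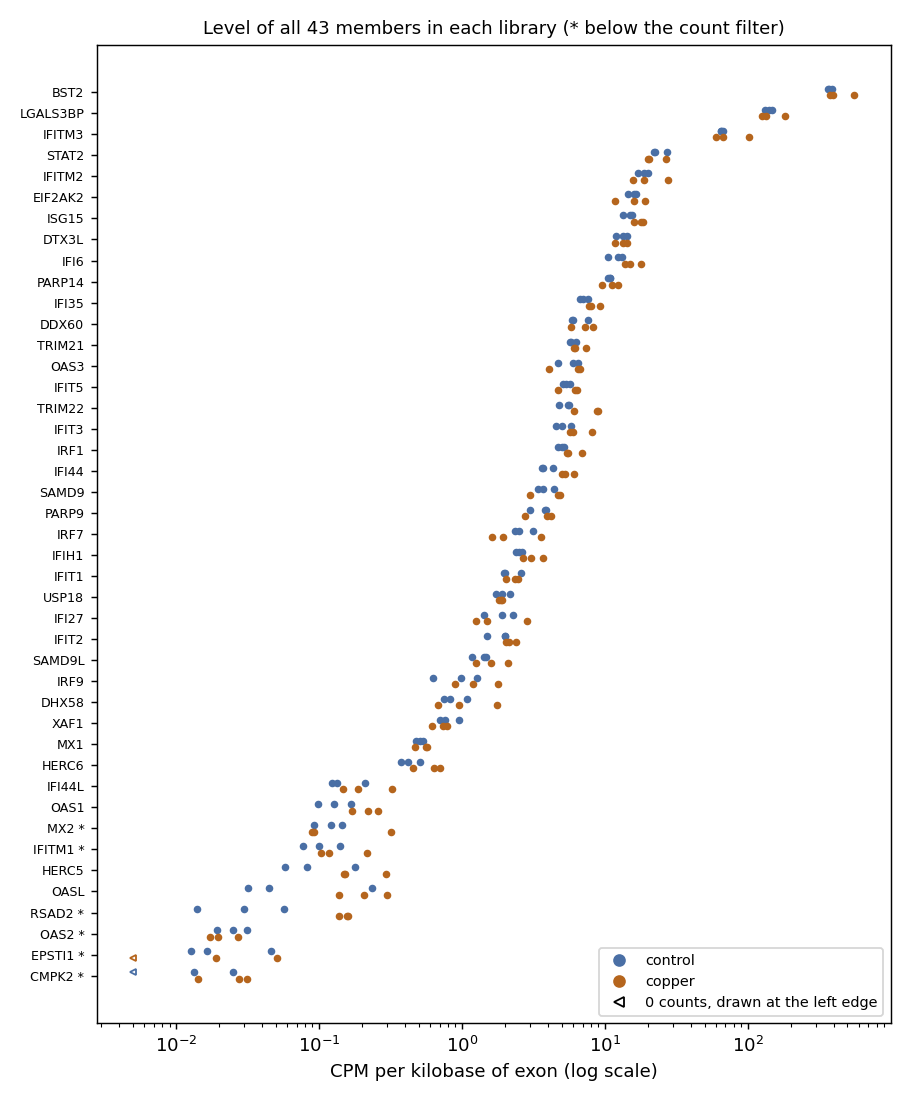
Level of each of the 43 members in CPM per kilobase of exon (log scale), 1 point per library, blue for control and brown for copper, ordered by the control mean. The 6 genes with an asterisk did not pass the count filter, and the groups overlap for 28 of the 37 that did. Copper lies above control without overlap for 9 (24.3%, against 5.45% of all tested genes) and below it for 0 (against 5.35%).

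Summed over the 43 members, the libraries held 1575, 1697 and 1887 CPM in copper replicates 1, 2 and 3 and 1566, 1586 and 1570 in the control replicates. These average 1720 ± 157 CPM with copper and 1574 ± 10.6 CPM without (SD, n = 3). BST2 and LGALS3BP made up much of the sum, and without them the copper libraries had 869, 941 and 843 CPM and the controls 847, 844 and 791 CPM. With that pair left out, copper replicate 3, the highest of all in the full sum, lay below 2 of the 3 control libraries.

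TRIM22, an interferon-induced ubiquitin ligase that restricts several viruses, had the smallest p of the 37 tested members. Its level was 26.6, 26.5 and 18.3 CPM in copper replicates 1, 2 and 3 and 16.7, 16.9 and 14.3 CPM in the controls. The lowest copper library was above the highest control, and the distance was larger in replicates 1 and 2 than in replicate 3. The log2 fold change was 0.58 (SE 0.17, 95% interval 0.19 to 0.97), with edgeR's adjusted p at 1.00, or 0.134 once the replicate number enters as a block. Without replicate 3 of either group it was 0.66 (adjusted p 0.0055 unblocked, 2.86e-05 blocked). TRIM22 (Entrez 10346) lies on chromosome 11, 5689790 to 5710863. Of the 50-base stretches of its coding transcripts, 12.6% also occur in transcripts of OR56B1, an olfactory receptor gene with at most 2 counts in any library. TRIM21, an antibody receptor inside the cell, had 12.6 ± 1.36 CPM in copper and 11.4 ± 0.60 CPM in control, a log2 fold change of 0.14.

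The IFI genes, a set named for their induction, included 5 members, all tested and all with a log2 fold change above 0. IFI44 (Entrez 10561, chromosome 1, 78649789 to 78664078) had 8.90, 10.2 and 8.53 CPM in copper and 7.36, 6.27 and 6.18 CPM in control. Every copper library was above every control, by 1.17 CPM at the closest. The log2 fold change was 0.47 (SE 0.15, interval 0.13 to 0.82). edgeR's adjusted p was 1.00, and 0.379 in the blocked fit. In the blocked fit without replicate 3 the log2 fold change was 0.48, with an adjusted p of 0.0385.

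IFI6 (Entrez 2537, chromosome 1, 27666064 to 27672192), a small membrane protein that limits cell death and flavivirus replication, had 12.9, 12.1 and 15.4 CPM in copper and 10.8, 11.4 and 9.12 CPM in control. The groups did not overlap, and the highest copper and lowest control value were both from replicate 3. The log2 fold change of IFI6 was 0.37 (SE 0.15, interval 0.021 to 0.72). The adjusted p by edgeR stood at 1.00, or 0.571 with the block. Without replicate 3 of both groups the log2 fold change of IFI6 was 0.17 (edgeR adjusted p 0.567, unblocked). The other 3 were IFI35 at 0.22, with groups that did not overlap, and IFI44L at 0.46 and IFI27 at 0.01, whose groups did. IFI44L had a mean of 1.29 CPM in copper and IFI27 one of 1.55 CPM. IFI44 and IFI44L are neighbours, 3643 bases apart.

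**Figure D2:**
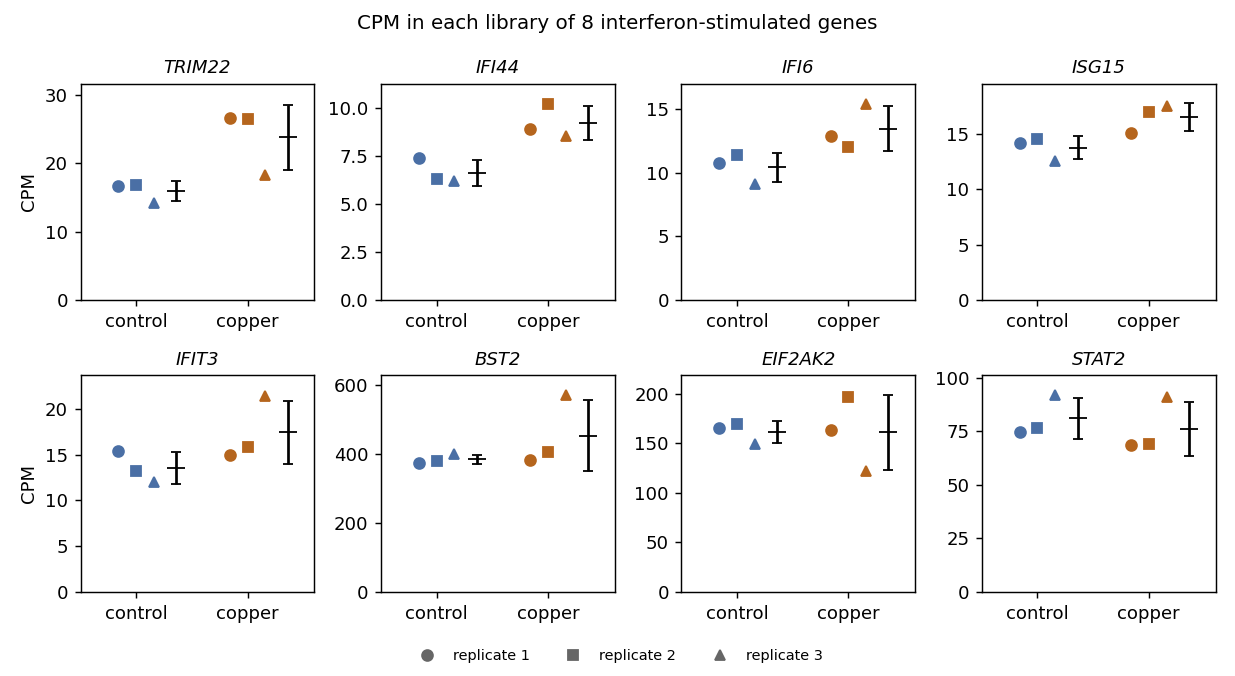
CPM (linear axis from 0) of 8 members in each library, with the mean ± SD of 3 libraries beside the points and the marker shape giving the replicate number. TRIM22, IFI44, IFI6 and ISG15 have no overlap between groups, while EIF2AK2 and STAT2 have similar means and differ mainly between replicate 3 and the others.

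Proteins that bind or modify viral RNA and proteins were represented by the IFIT family and the ISG15 system. The 4 IFIT genes lie in 1 cluster on chromosome 10, and all had a log2 fold change above 0, from 0.06 for IFIT1 to 0.36 for IFIT3. IFIT3 (Entrez 3437, chromosome 10, 89327997 to 89340968) had 15, 15.9 and 21.4 CPM in copper and 15.4, 13.2 and 12.1 CPM in control. Copper replicate 1 lay below control replicate 1, so the groups overlapped, and the largest distance was in replicate 3. The interval was -0.041 to 0.76, and the fold change without replicate 3 was 0.10. IFIT2 had 9.0 ± 0.73 CPM in copper and 7.52 ± 1.20 CPM in control with no overlap. IFIT5, the most abundant of the 4, had 25.8, 24.7 and 18.9 CPM in copper and 22.9, 21.4 and 20.6 CPM in control. Its lowest library was in copper, and its log2 fold change was 0.10, or 0.01 without copper replicate 1 and 0.22 without copper replicate 3.

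ISG15, a ubiquitin-like protein that is attached to other proteins, had 15.1, 17.0 and 17.5 CPM in copper and 14.2, 14.6 and 12.6 CPM in control. The groups did not overlap. Its log2 fold change was 0.26 (SE 0.12, interval -0.018 to 0.55), and 0.16 without replicate 3. By edgeR the adjusted p came to 1.00, or 0.588 with the block. ISG15 (Entrez 9636) lies on chromosome 1, 1013497 to 1014539. HERC5, the ligase that attaches ISG15, had 0.55, 1.07 and 0.54 CPM in copper and 0.64, 0.29 and 0.21 CPM in control, overlapping groups with an interval of -0.32 to 2.04. HERC6, its neighbour and relative, had a log2 fold change of 0.44 with overlap. USP18, the protease that removes ISG15 and restrains the receptor, was at 3.98 ± 0.070 CPM in copper and 4.14 ± 0.46 CPM in control. Of its 50-base stretches, 23.0% are shared with USP41.

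RNA sensors and the RNA-activated kinase gave 3 members above and 1 below 0. IFIH1, also called MDA5, a sensor of long double-stranded RNA, had 12.9, 15.6 and 11.3 CPM in copper and 10.6, 11.1 and 10.0 CPM in control. The groups were apart by 0.20 CPM. The log2 fold change was 0.32 (SE 0.15, interval -0.022 to 0.68), at an edgeR adjusted p of 1.00 unblocked and 0.522 blocked. In the blocked fit without replicate 3 the log2 fold change was 0.38, with an adjusted p of 0.0338. Without copper replicate 2 the log2 fold change was 0.19 in the unblocked fit. IFIH1 (Entrez 64135) lies on chromosome 2, 162267074 to 162318684. EIF2AK2, the kinase PKR that halts translation on binding double-stranded RNA, had 164, 197 and 122 CPM in copper and 165, 170 and 149 CPM in control. The means of EIF2AK2 were 161 ± 37.6 and 161 ± 10.8 CPM, and replicate 3 was lowest in both groups. DHX58, a regulator of the sensors, and DDX60, a helicase, had log2 fold changes of 0.35 and 0.12, both with overlap.

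Among enzymes and GTPases that stop viral replication, 4 members were tested. OAS1, which makes the messenger that activates RNase L, had 0.91, 1.07 and 0.70 CPM in copper and 0.40, 0.69 and 0.52 CPM in control. Each copper library held 13 to 19 counts, each control 10 to 14, and the groups of OAS1 were apart by 0.015 CPM. The log2 fold change of OAS1 was 0.65, with an interval of -0.029 to 1.52. OAS3, the abundant member, had 51.4, 52.5 and 32.1 CPM in copper and 46.9, 50.8 and 37.0 CPM in control, with replicate 3 lowest in both groups and a log2 fold change of 0.01. OASL had the highest log2 fold change of all tested members, 0.79, with an interval of -0.66 to 2.56 and at most 0.97 CPM in any library. MX1, a GTPase that traps viral nucleoproteins, had 2.26, 1.91 and 2.32 CPM in copper and 2.17, 2.06 and 1.94 CPM in control, with overlap and a log2 fold change of 0.07. Without a single library that value ran from 0.01 (copper replicate 3) to 0.14 (copper replicate 2).

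Membrane proteins that block viral entry or release were the most abundant class. BST2 (Entrez 684, chromosome 19, 17402939 to 17405630) had 382, 406 and 570 CPM in copper and 375, 378 and 399 CPM in control. Copper replicate 1 lay within the controls, and copper replicate 3 stood far above the rest. BST2 had a log2 fold change of 0.24 (SE 0.16, interval -0.13 to 0.60), at an edgeR adjusted p of 1.00 unblocked and 0.611 blocked. Without copper replicate 3 the log2 fold change of BST2 was 0.039 (edgeR adjusted p 0.850). IFITM3 had 72.4, 81.1 and 124 CPM in copper and 79.0, 79.0 and 81.2 CPM in control, with copper replicate 3 alone above the controls. IFITM2 had 16.7, 19.9 and 29.4 CPM against 18.1, 21.3 and 19.9 CPM. IFITM1, IFITM2 and IFITM3 share 32.9%, 31.4% and 14.4% of their 50-base stretches with other genes, chiefly each other, and how reads divide between the 3 genes is uncertain.

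The transcription factors of the pathway included 2 members above and 2 below 0. STAT2, the subunit particular to ISGF3, had 68.6, 69.0 and 90.7 CPM in copper and 74.6, 76.4 and 92.1 CPM in control. It was the only tested member lower in copper within all 3 replicate numbers, by 0.12, 0.15 and 0.02 on the log2 scale, and its interval was -0.43 to 0.25. IRF1, which interferon gamma induces, had 20.8, 20.7 and 26.3 CPM in copper and 19.6, 19.0 and 17.8 CPM in control without overlap. IRF1 had a log2 fold change of 0.26 (interval -0.033 to 0.56), and 0.10 without replicate 3. IRF9, the DNA-binding subunit of ISGF3, was at 2.54 ± 0.88 and 1.89 ± 0.65 CPM, and IRF7, the amplifier of interferon genes, at 5.08 ± 2.22 and 5.71 ± 0.88 CPM.

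PARP9 and DTX3L, which act as a complex and are 37 bases apart on chromosome 3, had log2 fold changes of 0.03 and 0.0016. PARP14 had 89.5, 97.2 and 76.1 CPM in copper and 83.1, 86.2 and 86.5 CPM in control, and a log2 fold change of 0.04 (interval -0.22 to 0.30). For DTX3L the interval was -0.27 to 0.27. SAMD9 and SAMD9L, neighbouring antiviral genes on chromosome 7, had log2 fold changes of 0.12 and 0.28. Without copper replicate 1 that of SAMD9 was 0.0046, and without copper replicate 2 that of SAMD9L was 0.065. SAMD9 had 33.2, 32.4 and 20.5 CPM in copper and 30.2, 25.5 and 23.2 CPM in control, and SAMD9L had 11.5, 15 and 8.96 against 10.5, 10.2 and 8.38 CPM. XAF1, a promoter of cell death, had 2.26, 2.69 and 2.86 CPM in copper and 2.78, 2.55 and 3.46 CPM in control. LGALS3BP had 323, 349 and 474 CPM in copper and 343, 364 and 380 CPM in control, with copper replicate 3 alone above the controls and a log2 fold change of 0.08, or -0.11 without that library.

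The members OAS2, MX2, IFITM1, RSAD2, CMPK2 and EPSTI1, 6 in all, had too few counts to be tested. RSAD2, also called viperin, an enzyme that makes a chain-terminating nucleotide, is singled out after its values were seen. It had 9, 10 and 9 counts in copper and 5, 1 and 2 in control, or 0.55, 0.56 and 0.49 CPM against 0.20, 0.049 and 0.10 CPM. The groups of RSAD2 did not overlap. Fitted without a filter, it stood 1.48 higher in copper on the log2 scale (SE 0.58, edgeR adjusted p 0.876). Its neighbour CMPK2, 11141 bases away, had 5 counts in copper and 3 in control in total. EPSTI1 had 4 and 5, OAS2 7 and 10, IFITM1 8 and 7 and MX2 26 and 23.

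**Figure D3:**
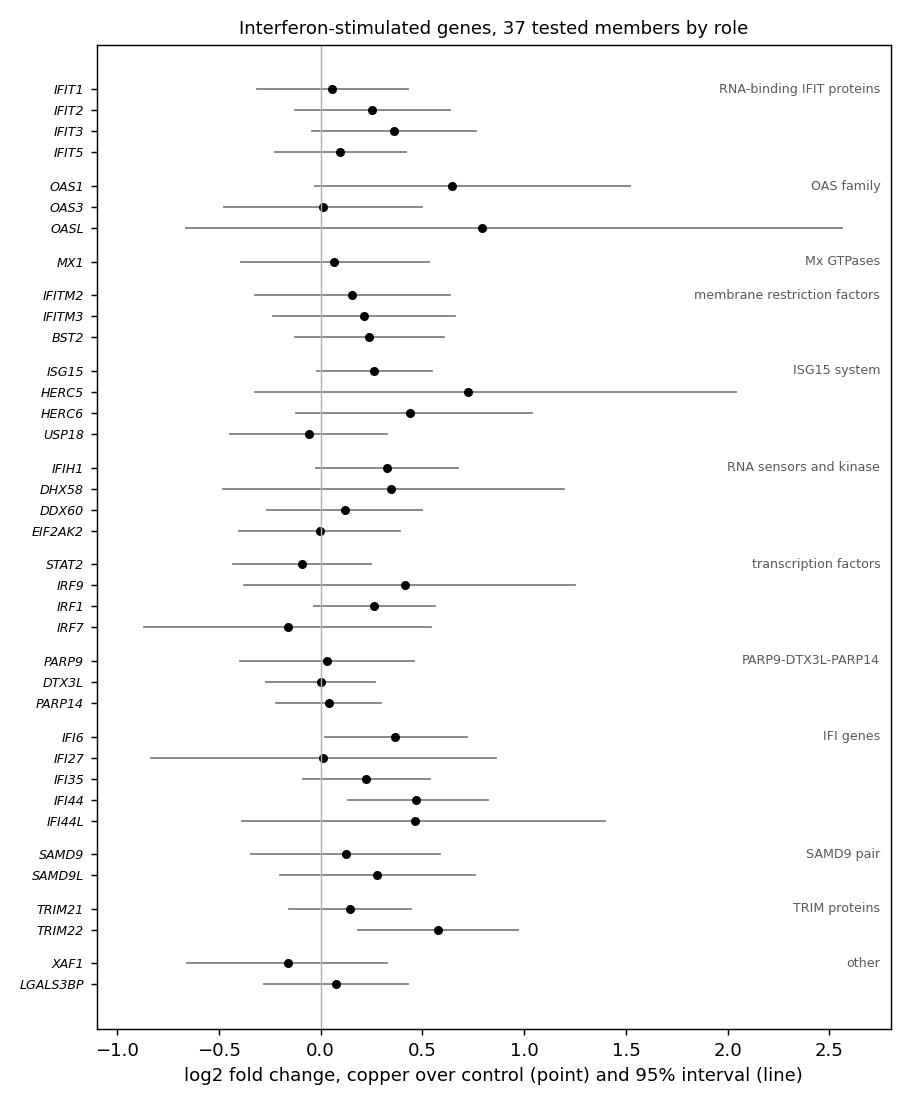
Log2 fold change of copper over control (points) with 95% intervals (lines) for the 37 tested members, grouped by role. Most points lie right of 0, the intervals of TRIM22, IFI44 and IFI6 do not reach 0, and the widest belong to OASL and HERC5, which have under 1 CPM on average.

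Over all members, 3 of 37 had an unadjusted p under 0.05 without the block, TRIM22, IFI44 and IFI6, where 3.52% of all tested genes had one. With the block there were 6, those 3 with ISG15, IFIH1 and OAS1, where the share of all genes was 8.41%. All of these were higher in copper, the direction of 1.92% of tested genes without and 4.16% with the block. After adjustment the block called 0 of 37 members and 0.17% of all genes, and DESeq2 called 0 of 37 and 0.209%, with 3 members at an unadjusted p under 0.05. DESeq2 gave OAS1 no adjusted p. Without copper replicate 3 edgeR called 0 of 38 (0.115% of all genes), with TRIM22 at an adjusted p of 0.0559, and without any other single library 0 of 37 or 38. With no filter it called 0 of 43 members and 0.0526% of genes. Without replicate 3 of both groups the unblocked fit called 1 of 38 members and 0.856% of genes, and the blocked fit 3 of 38 and 7.03%. Blocked fits lacking replicate 1 or 2 called 0 of 36 and 0 of 37 members, beside 0.568% and 0.589% of genes. Copper was above control without overlap in 9 members (24.3%) and in 5.45% of tested genes. They were TRIM22, IFI44, IFI6, IFI35, IFIT2, ISG15, IFIH1, OAS1 and IRF1. No member had the opposite order, which 5.35% of tested genes had. The members share libraries, and their values are not independent. The 95% interval lay wholly between -1 and 1 for 30 of 37 members, so that a 2-fold change in either direction was outside it, and for 88.7% of all tested genes.

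Within replicate numbers the lean was uneven. In replicates 1, 2 and 3 the median log2 ratio of copper over control was 0.07, 0.17 and 0.23, with 22, 30 and 26 of 37 members above 0. The corresponding medians over all tested genes were 0.0017, 0.0064 and 0.0019. Copper was higher within all 3 numbers for 13 members (35.1%), against 17.7% of all tested genes, and lower for 1, against 17% of them. In 8 members both replicate 3 libraries lay below the other 4, among them OAS3, SAMD9, DDX60 and EIF2AK2, and in 8 they lay above, among them STAT2, IRF7 and IFITM3. Each is 21.6% of members, where the shares of all tested genes were 23.8% below and 24.2% above.

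Transcript length moved with the ratio in replicate 3. Across the 37 tested members, Spearman's rho between exon length and the log2 ratio was 0.24, 0.23 and -0.68 in replicates 1, 2 and 3. Across 11754 tested genes with a length it was -0.08, 0.0082 and -0.51. These describe genes that share libraries and are given without a test. In replicate 3 the 18 members shorter than 3594 bases of exon had a median log2 ratio of 0.44 and the 19 others one of -0.014. Among all genes the same division gave 0.13 and -0.15. In replicate 2 it was the longer members that had the higher median, 0.24 against 0.09, and in replicate 1 they had 0.11 against -0.063. With the length trend of each library removed and no block, the log2 fold change of BST2 went from 0.24 to 0.11 and that of ISG15 from 0.26 to 0.15, while IFI44 kept 0.40 and TRIM22 0.56. TRIM22 then had an adjusted p of 1.00, or 0.0622 in the blocked fit, and edgeR called 0 of 37 members in both, where 0.017% and 0.408% of all genes were called.

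**Figure D4:**
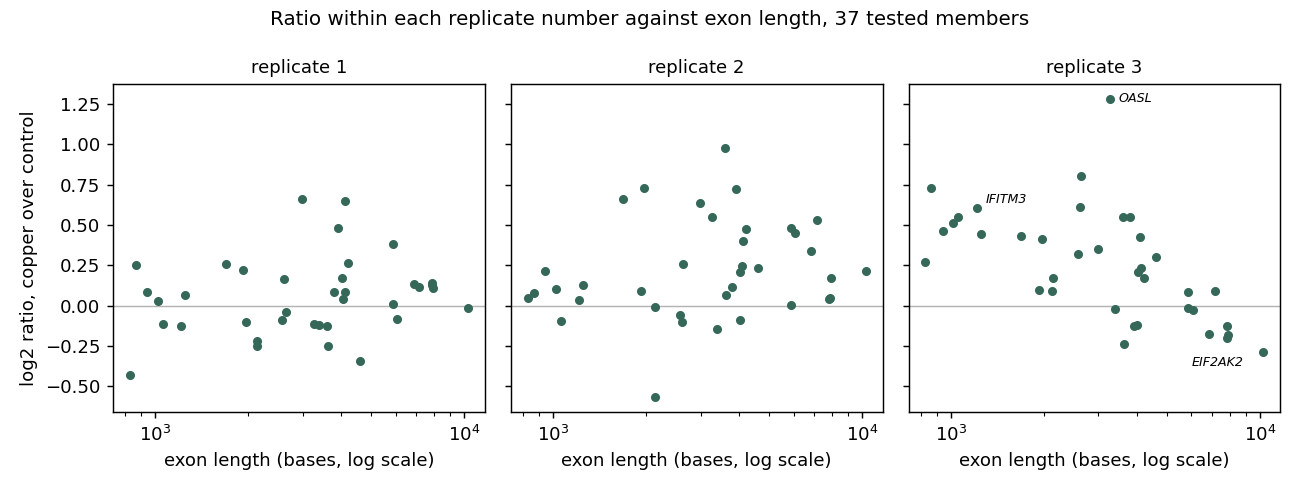
Log2 ratio of copper over control within replicates 1, 2 and 3 (vertical) against exon length in bases (horizontal, log scale) for the 37 tested members. In replicate 3 the short members lie above 0 and the longest below it, a slope that replicates 1 and 2 do not have.

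Upstream of the members, the interferon genes examined were close to silent. The 10 ligand genes examined, of types I, II and III, gave 34 counts in copper and 45 in control over all libraries, and none passed the filter. IFNE, an interferon of epithelia, made up most of these, with 8, 7 and 5 counts in copper and 17, 7 and 11 in control. IFNB1, the interferon first made after viral sensing, had 1 count in copper replicate 2 and 0 elsewhere.

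Receptors and signalling genes were expressed and had no called member. Of 6 receptor genes 3 had a log2 fold change above and 3 below 0, with a median of -0.03. IFNAR1 and IFNAR2 form the receptor for type I interferon. IFNAR1 had 98.0, 95.8 and 70.3 CPM in copper and 98.0, 96.5 and 81.3 CPM in control, and IFNAR2 had 5.67, 5.50 and 6.53 against 5.67, 5.39 and 6.55 CPM. Both pairs of groups overlapped almost completely. IFNGR1, a chain of the interferon gamma receptor, had 34.7, 33.5 and 34.8 CPM in copper and 36.8, 40.9 and 39.6 CPM in control. All copper libraries of IFNGR1 were below the controls, with a log2 fold change of -0.19 and an edgeR adjusted p of 1.00 unblocked and 0.597 blocked.

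JAK-STAT genes numbered 11, of which 2 lay above and 9 below 0, with a median of -0.09. PIAS1, an inhibitor of STAT signalling, had 29.4, 32.4 and 26.6 CPM in copper and 32.1, 34.6 and 34.2 CPM in control, a log2 fold change of -0.19 with overlap. Among 12 tested genes of nucleic acid sensing, 5 lay above and 7 below 0, with a median of -0.01. IKBKE, a kinase that activates IRF3, had the smallest p of these, with 14.1, 14.6 and 18.2 CPM in copper and 13.7, 12.9 and 14.6 CPM in control and a log2 fold change of 0.19.

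Of 11 genes that answer chiefly to interferon gamma, 4 were tested, 2 above and 2 below 0, with a median of 0.07. GBP3, a guanylate-binding protein, had 65.2, 83.3 and 74.0 CPM in copper and 62.4, 62.9 and 74.6 CPM in control, with overlap and a log2 fold change of 0.15. The chemokine genes CXCL9, CXCL10 and CXCL11 had at most 2 counts in any library. No gene of these 5 lists was called without or with the block when all libraries were used. In the blocked fit without replicate 3, which called 7.03% of all genes, GBP1, SOCS3, STING1 and TYK2 were called beside the members TRIM22, IFI44 and IFIH1. GBP1 was higher in copper, with log2 ratios of 0.42 and 0.15 within replicates 1 and 2. The other genes were lower there, SOCS3 at -0.27 and -0.39, STING1 at -0.37 and -0.24 and TYK2 at -0.12 and -0.23.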

How the data were processed

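RNA of 786-O cultures, 3 adapted to copper and 3 controls, was sequenced from directional NEBNext libraries, per the labels' protocols. The authors deposited raw counts per gene for the 6 libraries, with 25992 rows. The submitters' processing notes name STAR, FastQC, edgeR and GRCh38. The counting program and its use of strand are not given in the sources used here. Rows without a symbol (5, 0.000814% of counts) were left out. Starts in the table count from 0, so 1 was added. The ends of 38 of 43 members lay within 1000 bases of RefSeq GRCh38.p14 ends, and positions from the table are printed for these only.

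The fit used edgeR 4.0.16 (R 4.3.3) with filterByExpr (minimum count 10, total 15), TMM scaling, group as the only term and the robust quasi-likelihood test. Benjamini-Hochberg adjustment ran over all tested genes, and a call is an adjusted p under 0.05. Fold changes used a prior count of 2, and standard errors and 95% intervals the coefficients without it. CPM is the usual count scaled to library size, here after TMM. Ratios within replicate numbers added 0.5 CPM. Exon length is the union over coding transcripts of GENCODE 29's basic set. The fit was tested on simulated counts drawn without a replicate effect, which cannot show how it handles the replicate differences seen here. Counting error is part of every interval and weighs most, relative to the level, on members with few counts.

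Replicate numbers are shared between groups in the labels, without a stated meaning. Deviations from the group mean, across tested genes, correlated at 0.57, 0.48 and 0.70 between same-numbered libraries, above the minimum of 0.1. A blocked fit on replicate number is therefore given beside the results. The deviations within a group sum to 0, replicate 3 stood apart in both groups, and correlations between libraries of different numbers were not computed. These values therefore cannot show whether the libraries of replicates 1 and 2 are paired. Within groups the lowest chi-square was 5.04 per degree of freedom, and each library was counted once. Alternatives were RLE and total-count scaling, no filter, DESeq2 1.42.0, a fit that was not robust, the block, each library, each pair or replicate 3 left out, and, chosen after seeing the data, removal of each library's length trend (spline with 4 degrees of freedom).

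The members and lists were chosen with earlier results of these data known. Values by library are given for members called in either fit and, in each role, the tested member with the smallest p and the one with the highest CPM, for the smallest p of each pathway list, and for IFNAR1 and IFNAR2. A further gene under this rule is not reported here. Others printed by library were IFITM2, IFITM3, HERC5, RSAD2 and the ligand IFNE, added after their values were seen. A planned comparison of proteins was not made, and shared stretches of 50 bases between transcripts were counted in its place.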

Additional observations from a re-analysis of the deposited data

How the results depend on the processing

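Across 18 alternatives the number of called genes was 0 in all cases except some fits on fewer libraries and 12 (no filter), 27 (DESeq2 in place of edgeR), 22 (replicate block), 2 (length trend removed) and 48 (both block and length trend). The 6 fits that each left out one library called 0 to 15 genes, with 15 only without copper replicate 3, and 111 were called without replicate 3 of both groups. In blocked fits each lacking one pair the counts were 74, 77 and 912 without replicates 1, 2 and 3. The number of called members was 0 in all but 2 alternatives, both of them without replicate 3, with 1 without the block (TRIM22) and 3 with it (TRIM22, IFI44 and IFIH1). The latter also called 4 genes of the pathway lists, GBP1 higher in copper and SOCS3, STING1 and TYK2 lower. The all-library blocked fit changed no call of a member, and with one pair left out it changed the calls of these 3 only.

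The median of the members stayed above 0 in all 18, from 0.117 with the length trend removed to 0.284 in the blocked fit without replicate 1. It was 0.122 with the block and the length trend removed, 0.125 without replicate 3 and 0.124 without replicate 3 in the blocked fit. The fits that left out one library gave 0.170 to 0.269. Of the members given by library under the naming rule, 313 results kept direction and call, 4 were newly called and 25 changed sign, none of them called.

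Sign changes concerned members near 0. EIF2AK2 was at 0.0218 with total counts, 0.0612 with the length trend removed, 0.0564 with the block and the length trend removed, and OAS3 at -0.00790 with no filter and -0.00431 with the block. With 1 library, or replicate 3 of both groups, left out the ranges were -0.180 to 0.160 for EIF2AK2, -0.110 to 0.209 for OAS3, -0.0455 to 0.143 for PARP14 (the highest without replicate 3 of both groups), -0.108 to 0.182 for LGALS3BP, -0.0288 to 0.141 for MX1 (the lowest likewise, and above 0 with any 1 library left out) and -0.234 to 0.0117 for STAT2. Without replicate 3 of both groups, MX1 was at -0.0288, EIF2AK2 at 0.107 and LGALS3BP at -0.0720, and with the block at -0.0226, 0.101 and -0.0728. In the blocked fit without replicate 1, OAS3 was at -0.0788 and PARP14 at -0.00879, and without replicate 2 OAS3 was at -0.0332, PARP14 at -0.0381 and SAMD9 at -0.0166. The cause was not tested. The widest intervals were those of OASL and HERC5, with under 1 CPM on average.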
